A study of Rattus norvegicus with 6 samples.

Results

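COX1 and COX2 are the mitochondrial genome's genes for 2 subunits of cytochrome c oxidase, complex IV of the respiratory chain. On the GeneChip used here, 1 probe set carried the symbol COX1 (1389956_a_at) and 1 the symbol COX2 (1375107_at), 2 genes of 14217 named on the chip and 2 of 31042 probe sets once Affymetrix controls were set aside. They were chosen by their platform symbol, with their rank among all probe sets and their differences between eyes on these same 6 arrays already known. Those ranks, levels and eye differences are therefore given as a description, with no test.

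Complex IV takes electrons from cytochrome c and passes them to oxygen while pumping protons across the inner mitochondrial membrane. COX1 holds the heme and copper center where oxygen is reduced, and COX2 holds the copper center that receives electrons from cytochrome c. Both are made inside the mitochondrion from long transcripts of the circular genome that are cut into single messages, whereas the remaining subunits are encoded in the nucleus, apart from COX3. Retinal ganglion cells have an unmyelinated axon segment within the eye that is rich in mitochondria, and cytochrome oxidase activity is a classical marker of neuronal energy use. The gene symbol COX2 is shared in common usage with inducible cyclooxygenase, Ptgs2, a nuclear gene with its own probe sets that is not meant here.

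The study asked how raised intraocular pressure alters expression in retinal ganglion cells, the output neurons of the retina. It used 3 adult male Brown Norway rats. The cells were traced with Fluorogold from the superior colliculus in both eyes, pressure was raised in 1 eye by hypertonic saline injected into an episcleral vein and kept up for 10 days, and 2000 cells per eye were laser captured. Each eye gave 1 array, which holds RNA pooled from those cells. The right eye is OD (n = 3) and the left eye is OS (n = 3). All animals had the procedure on 1 side, and there was no untreated animal. The labels do not say which eye was treated, so every difference below is OS minus OD within a rat and cannot be read as treated against control. If the treated side varied between rats, an effect of pressure would partly cancel.

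The 6 arrays had median intensities between 313 and 370 after the authors' scaling. The background limit, taken from bacterial control probe sets, lay between 261 and 591 intensity units, and 34.8% to 58.1% of probe sets exceeded it. The OD and OS arrays of rat 2 had the highest limits (591 and 547) and the lowest shares above them (34.8% and 34.9%). Of the 14 ganglion cell markers on the platform, 8 were above the limit on all 6 arrays, among them Thy1, Nefm, Nefh, Rbpms and Rbpms2. In the limma fit over 15521 probe sets, 2 (0.0129%) were lower and 0 (0%) higher in OS at an adjusted p under 0.05, and COX1 and COX2 were not among them, which is no test of genes chosen on these values. At an unadjusted p under 0.05 there were 1072. The 2 calls became 20 without rat 1, 52 without rat 2, 17 without rat 3 and 0 without the replicate block.

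COX1 was the brightest probe set of the chip on 5 of 6 arrays and the second brightest on the OS array of rat 1. Its deposited intensity in the OD and OS eye was 524443 and 533945 for rat 1, 995235 and 852569 for rat 2, and 656193 and 770751 for rat 3. The animals, rather than the eyes, were ordered, with both arrays of rat 2 highest and both of rat 1 lowest, and the OD and OS ranges overlapped. These values were 1445 to 2707 times the median of the same array and at least 1336 times its background limit. COX1 alone held between 2.31% and 4.38% of the summed signal of an array.

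COX2 ranked between 6 and 9. Its intensity in the OD and OS eye was 210700 and 109562 for rat 1, 385738 and 339975 for rat 2, and 213831 and 234331 for rat 3. Rat 2 was again highest in both eyes, the OD arrays of rats 1 and 3 were nearly equal, and the OS array of rat 1 was the lowest of all. COX2 held 0.520% of the summed signal on that array and 0.880% to 1.70% on the other 5. It exceeded the background limit by at least 274 times on each array.

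**Figure D1:**
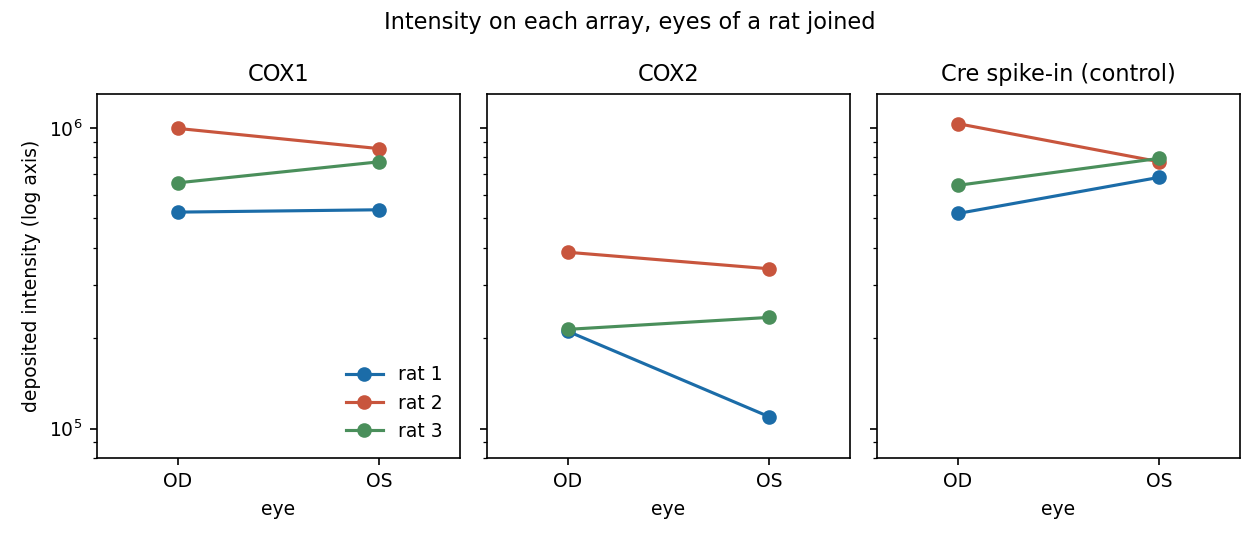
Deposited intensity (log axis) of COX1, COX2 and the bacteriophage Cre spike-in probe set in the right (OD) and left (OS) eye, with 1 point per array and the eyes of a rat joined. COX1 lies between 524443 and 995235, COX2 between 109562 and 385738, and the 1 steep line is COX2 in rat 1.

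A rank among probe sets describes how bright a probe set is and does not order transcripts by abundance, since probes differ in how well they bind. Between 5 and 8 probe sets were brighter than COX2 on an array, COX1 included. Besides COX1, 4 probe sets exceeded COX2 on all 6 arrays (1388159_at, 1375651_at, 1375340_at and 1375108_at), and 0 of them had a gene symbol in the platform annotation. They are singled out here after their values were seen. Their log2 levels over the 6 arrays correlated with COX2 at r = 0.912, 0.982, 0.945 and 0.968, in the order named, and with COX1 at 0.909, 0.930, 0.823 and 0.906. These are descriptions over 6 arrays of 3 rats that share array scaling and animal. Their eye differences averaged -0.09 ± 0.13, -0.16 ± 0.36, -0.23 ± 0.52 and -0.16 ± 0.27 on the log2 scale (SD, n = 3 rats), and all were lower in OS of rat 1, where COX2 was lower too. The unnamed probe set 1375422_at did not keep such a place, with ranks from 1 to 10, and had r = -0.121 with COX1 and -0.042 with COX2. The annotation was searched for 29 further symbols of protein and ribosomal RNA genes of the mitochondrial genome, and 0 were in it. Several were alternative names of the same gene, and Mt-co1 and Mt-co2 are other names of COX1 and COX2. By these symbols, COX1 and COX2 are the only such genes named here.

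**Figure D2:**
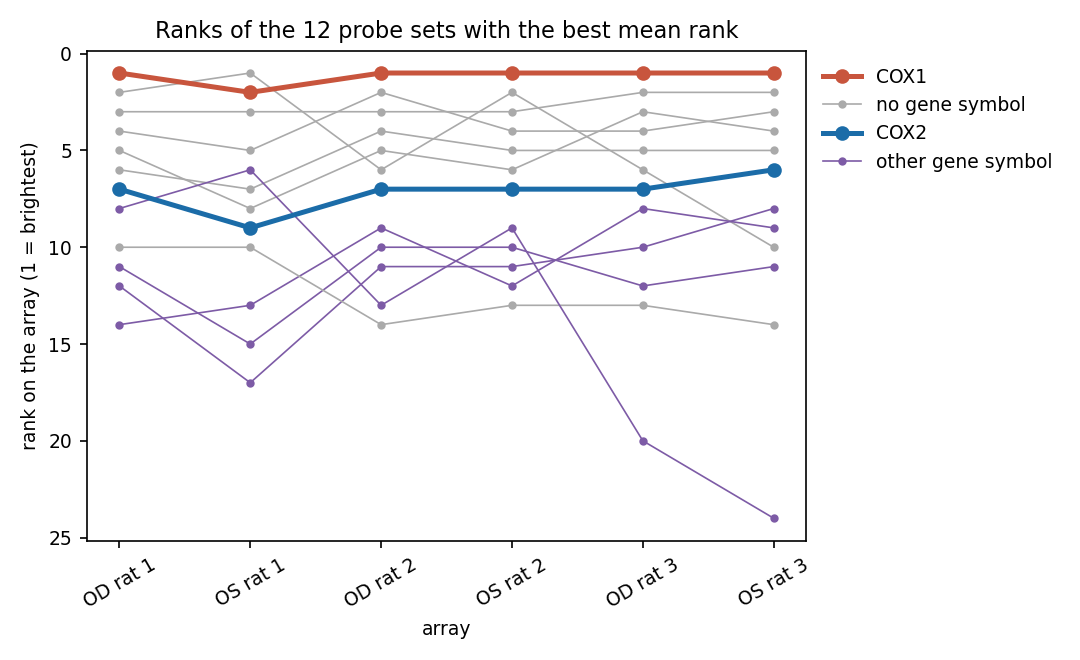
Rank on each array (1 is the brightest) of the 12 probe sets with the best mean rank. COX1 stays at rank 1 or 2 and COX2 between 6 and 9, while 6 of the other lines carry no gene symbol and 4 carry another symbol.

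COX1 had nearly equal levels in both eyes. OS was 1.02 times OD in rat 1, 0.857 times in rat 2 and 1.18 times in rat 3. The mean difference was 0.01 ± 0.23 on the log2(intensity + 16) scale (SD, n = 3 rats), with group means of 19.42 in OD and 19.43 in OS, and 1 of 3 rats lower in OS. COX2 was 0.520 times in rat 1, 0.881 times in rat 2 and 1.10 times in rat 3, a mean log2 difference of -0.33 ± 0.55 (SD, n = 3 rats) with 2 of 3 rats lower in OS. Its mean rests on rat 1 and was -0.03 without that animal, -0.41 without rat 2 and -0.56 without rat 3. Neither probe set went the same way in all 3 rats, and in each case the SD between rats exceeded the mean difference.

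As deposited, both genes had the same order of animals. Rat 2, the highest, also had the arrays with the highest background limits, and their part in this order was not tested. Averaged over both eyes, rat 2 was 1.74 times rat 1 and 1.30 times rat 3 for COX1, and the SD of the 3 rat means was 0.40 on the log2 scale. For COX2, rat 2 was 2.38 times rat 1 and 1.62 times rat 3, with an SD of rat means of 0.63. The log2 ratio of COX1 to COX2 within an array in the OD and OS eye was 1.32 and 2.28 for rat 1, 1.37 and 1.33 for rat 2, and 1.62 and 1.72 for rat 3. The OS array of rat 1 had the highest ratio, with COX2 low there and COX1 near its OD value.

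The levels of COX1 followed those of a control added to every sample. Cre, a bacteriophage gene whose labelled RNA is mixed into the hybridization solution, read 518963 and 684389 in the OD and OS eye for rat 1, 1032156 and 771217 for rat 2, and 643704 and 791337 for rat 3. Divided by this spike-in, COX1 gave 1.01 and 0.780 in the OD and OS eye for rat 1, 0.964 and 1.11 for rat 2, and 1.02 and 0.974 for rat 3. The low value is that of the OS array of rat 1, and the others are close to 1. COX2 divided by Cre was 0.406 and 0.160 for rat 1, 0.374 and 0.441 for rat 2, and 0.332 and 0.296 for rat 3, and the lowest value again belonged to OS of rat 1. Over the 6 arrays COX1 correlated with Cre at r = 0.891 and COX2 at r = 0.566, as a description of arrays that share 1 scaling each.

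**Figure D3:**
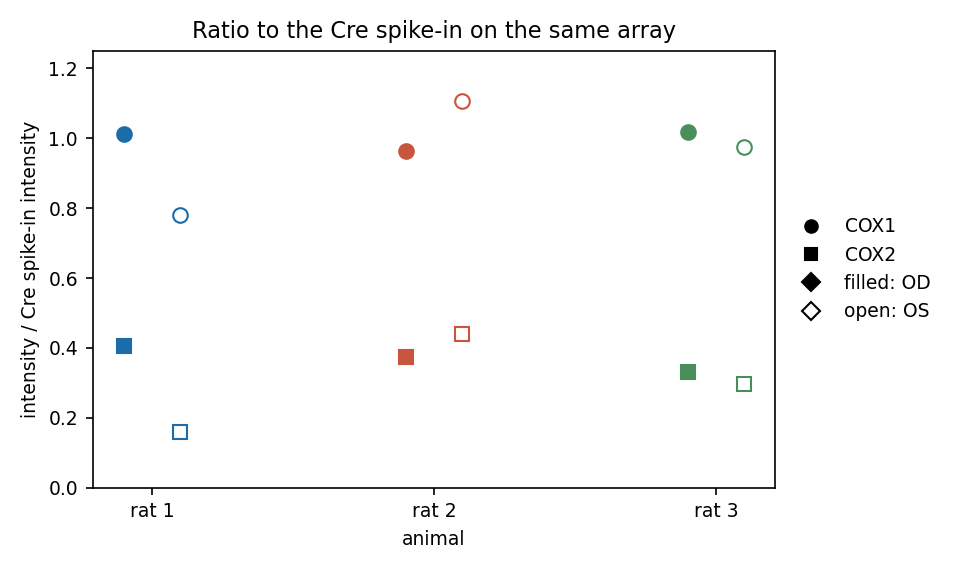
Intensity of COX1 (circles) and COX2 (squares) divided by that of the Cre spike-in on the same array, filled for OD and open for OS, by rat. COX1 lies between 0.780 and 1.11 and COX2 between 0.160 and 0.441, with OS of rat 1 lowest for both.

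After each array was scaled to the mean of its 18 spike-in probe sets, an alternative chosen after the data were seen, the spread of COX1 over the 6 arrays was 0.55 on the log2 scale, against 0.92 as deposited. Its rat means then differed by an SD of 0.13, against 0.40. The eye differences of COX1 became -0.38, 0.35 and -0.15 in rats 1 to 3, each with the opposite sign to the deposited values. For COX2 they became -1.35, 0.39 and -0.25, so that only rat 1 kept its sign. Rat 2 stayed highest for both genes, but the shared order of animals was lost, with centred rat means of -0.04, 0.14 and -0.11 for COX1 and -0.23, 0.40 and -0.17 for COX2 in rats 1 to 3. COX1 and Cre were both at the top of the intensity range. The deposited values hold no mark for saturated probes, so whether either had reached the scanner's ceiling was not tested.

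Among the 100 brightest tested probe sets, COX1 had the smallest mean difference between eyes in absolute size, and the SD of its 3 eye differences was the 5th smallest (0.23, against a median of 0.66 for the 100). Its SD over all 6 arrays, 0.37, was the 6th smallest, where the median was 0.79. COX2 lay nearer to the middle, at place 43 for the mean difference, place 34 for the SD of differences and place 30 for the SD over arrays (0.64). Over all tested probe sets the median SD over arrays was 1.01. These places describe values the choice of members used.

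The pattern of COX1 over the 6 arrays was most like that of 5 named genes, by Pearson's r of log2(intensity + 16) over 15519 tested probe sets. They were the kainate receptor subunit gene Grik5 (r = 0.994), Tmem38a, which encodes an intracellular cation channel (0.992), the deubiquitinase gene Cyld (0.985), the translation initiation factor gene Eif4g1 (0.976) and the mitochondrial ribosomal protein gene Mrpl46 (0.975). Grik5 exceeded the background limit on 2 of 6 arrays, and Tmem38a and Mrpl46 exceeded it on 6. Tmem38a had a spread close to that of COX1, running from 1210 in OD of rat 1 to 2158 in OD of rat 2, and its eye difference was 0.00 ± 0.26. For COX2 the most alike were Zfp112 (r = 0.995), Usp6nl (0.993), LOC102547113 (0.989), Zfp862 (0.989) and the alpha-2C adrenergic receptor gene Adra2c (0.985). Zfp112, Zfp862 and Adra2c exceeded the background limit on 3 of 6 arrays. Usp6nl, which encodes a Rab GTPase-activating protein, had its lowest value, 267, in OS of rat 1 and its highest, 1608, in OD of rat 2, as COX2 did. With 6 arrays such values are common in a large table, and 92 probe sets (0.593%) reached r = 0.9 with COX1 and 181 (1.17%) with COX2. COX1 and COX2 correlated with each other at r = 0.859.

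The nuclear-encoded subunits surround the mitochondrially encoded core and take part in its assembly and regulation. Of 19 symbols fixed for this list, 17 were on the platform and 10 were bright enough to be tested. None of the 10 passed at an adjusted p under 0.05 in limma (0 lower, 0 higher), and 2 had an unadjusted p under 0.05, both lower in OS. The mean difference was below 0 for 9 of 10, and 5 of 10 (50%) were lower in OS in all 3 rats, against 15.6% of the 8594 tested genes. In the other direction it was 0 of 10, against 13.1% of all tested genes. The median difference was -0.75, against -0.07 over all tested genes, with medians of -0.68, -0.20 and -0.94 in rats 1 to 3, and it was -0.49 without rat 3. A related list of respiratory chain genes was known from earlier work on these arrays to be lower in OS, so this count is not independent of it.

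Cox7a2l, which encodes a factor that joins complexes III and IV into supercomplexes, had the smallest p of these genes. Its intensity in the OD and OS eye was 6405 and 2076 for rat 1, 2755 and 1442 for rat 2, and 6733 and 2774 for rat 3. OS was lower in each rat, while the lowest OD value, in rat 2, lay just below the highest OS value, in rat 3, so the groups overlapped. The difference was -1.27 ± 0.35 (SD, n = 3 rats, limma adjusted p = 0.496). Cox6a1, a subunit linked to regulation of the enzyme by ATP and ADP, differed by -1.70 ± 1.44 (adjusted p = 0.662), but 2 of its 3 OS values were within background, which leaves its size uncertain.

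Cox8a, one of the smallest subunits, differed by -0.76 ± 0.71. Cox4i1, the largest nuclear-encoded subunit and a site of allosteric control by ATP, differed by -1.10 ± 0.87, and Cox7b by -0.86 ± 0.66. These 3 were lower in OS in 3 of 3 rats, with adjusted p between 0.794 and 0.811 in limma. Cox4i1 read 209 in OS of rat 3 and Cox7b 242 in OS of rat 2. Both values were within background, which leaves the sizes for Cox4i1 and Cox7b uncertain. Cox5a, which binds the matrix face of the complex, differed by -0.75 ± 1.29. Its mean rests on rat 1, where it read 1105 in OD and 224 in OS, the same array on which COX2 was lowest. The 224 was within background, which leaves the size uncertain, and in rats 2 and 3 Cox5a differed by 0.17 and -0.19. It had the highest correlation of the 10 with COX2 (r = 0.631) and with COX1 (0.371). Cox5b, whose product binds zinc (-0.46 ± 0.90), and Cox6c (-0.53 ± 2.21) went different ways in different rats. So did Cox6b1, at the cytochrome c side (-0.07 ± 0.66), and Cox7c (0.95 ± 1.62), which exceeded the limit on 1 of 3 OS arrays. In OD of rat 2, Cox5b (569), Cox6c (310.5) and Cox7c (70.5) were within background. Rat 2 was the only animal in which Cox5b and Cox6c were higher in OS, so the size of that rise is uncertain. Correlations of the 10 with COX1 ran from -0.611 to 0.371, and 3 of the 10 were above the background limit on all 6 arrays.

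**Figure D4:**
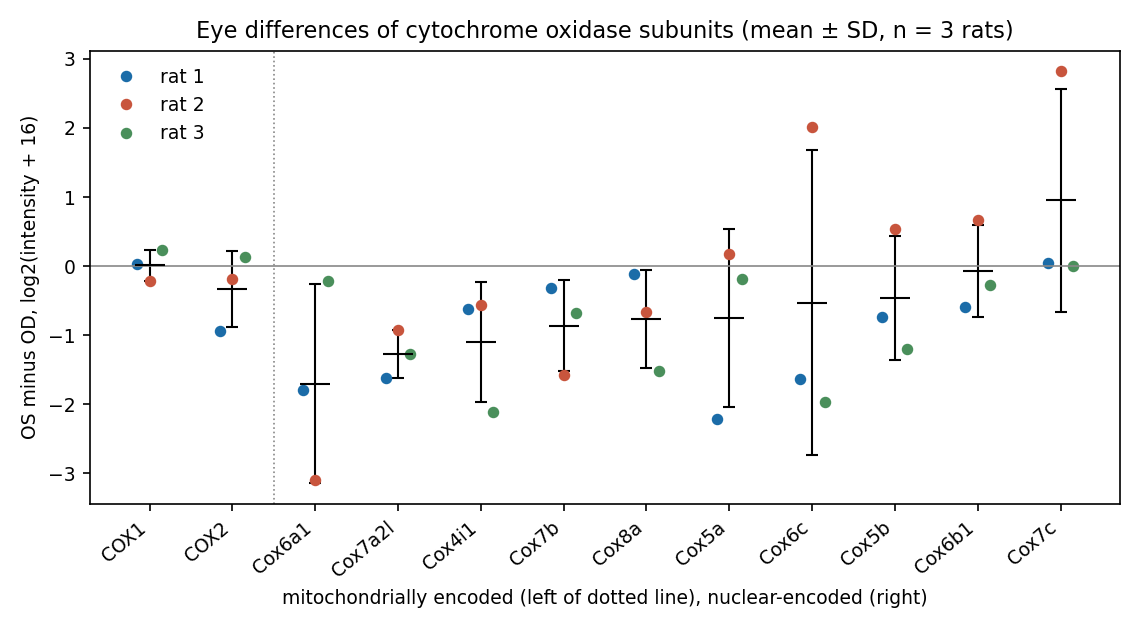
OS minus OD on the log2(intensity + 16) scale for COX1, COX2 and the 10 tested nuclear-encoded subunits, with 1 point per rat and bars for the mean and SD over 3 rats. COX1 lies at 0.01 ± 0.23 with all rats near 0, whereas Cox7a2l lies at -1.27 ± 0.35.

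The 7 subunit genes left untested were Cox4i2, Cox6a2, Cox6b2, Cox7a1, Cox7b2, Cox8b and Ndufa4. The first 6 are isoforms found mainly in other tissues such as lung, muscle, heart or testis. Each of the 7 exceeded the background limit on at most 2 of 6 arrays. The difference between the subunit list and COX1 or COX2 was not tested.

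Genes that build the enzyme around COX1 and COX2 showed no common direction. Of 15 tested assembly and copper delivery genes, 0 passed. In all 3 rats, 1 (6.67%) was lower in OS and 2 (13.3%) were higher, against 15.6% and 13.1% of all tested genes. The median of -0.14 had no stable sign and became 0.05, -0.25 and 0.43 with rat 1, rat 2 and rat 3 left out in turn. Cox17, the copper chaperone that supplies the copper centers of both mitochondrial subunits, read 999 and 15.7 in the OD and OS eye for rat 1, 1075 and 395 for rat 2, and 1841 and 149 for rat 3. OS lay below OD in each rat, as it did for 15.6% of all tested genes. All 3 OS values of Cox17 were within background, which makes OD at least 2.75-fold higher (limma adjusted p = 0.355 over all tested probe sets). Higd1a, a small inner membrane protein gene that responds to low oxygen, differed by -1.18 ± 2.11. Coa3, needed for COX1 translation and assembly, differed by 1.37 ± 1.01 and was higher in 3 of 3 rats. It read 271 in OD of rat 2, within background, which leaves its size uncertain. Cox15, an enzyme of heme A synthesis, differed by 1.46 ± 1.62, with 1 of 3 OD arrays above the limit. Of the cytochrome c genes, 2 were tested, Cyc1 of complex III (-0.08 ± 0.44) and Hccs, which attaches heme to cytochrome c (0.02 ± 0.92).

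Genes that copy and transcribe the mitochondrial genome were likewise without a call. Of 10 tested, 4 (40%) were lower and 1 (10%) higher in OS in all 3 rats. Over all tested genes these shares were 15.6% and 13.1%. The median of the list was -0.03. Tk2, a mitochondrial thymidine kinase, was within background on all 3 OS arrays, which makes OD at least 1.97-fold higher (limma adjusted p = 0.603). Polg2, the accessory subunit of the mitochondrial DNA polymerase, differed by -1.33 ± 1.23, the exonuclease gene Mgme1 by -1.13 ± 1.16 and Mterf4 by 0.39 ± 0.26. Polg2 read 97.8 in OS of rat 2 and Mgme1 68.0 in OS of rat 3, both within background, which leaves their sizes uncertain. Among 14 genes that process or stabilize mitochondrial RNA, 0 (0%) were lower and 1 (7.14%) was higher in all 3 rats, with a median of -0.06. That gene was Hsd17b10, a subunit of mitochondrial RNase P, for which all OD arrays were at or below the limit. Rat 2 gave 50.1 in OD and 358 in OS, both within background, so the rise counted there was not measured. With rat 2 included, Hsd17b10 was at least 1.67-fold higher in OS, a bound that is therefore uncertain (limma adjusted p = 0.738). Lrpprc, which stabilizes mitochondrial messages and is needed for normal COX1 levels, was within background on all 3 OS arrays. Its OD value in rat 2, 128, was within background as well, so no direction was measured in that rat. The bound of at least 1.11-fold for OD over OS includes that OD value and is uncertain (limma adjusted p = 0.829). Ptcd3, a mitochondrial ribosomal subunit protein, differed by -2.02 ± 1.91 and Fastkd3 by -1.08 ± 2.44. Ptcd3 was brighter than background on 1 OS array and Fastkd3 read 58.0, within background, in OS of rat 2, which leaves both sizes uncertain.

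Nuclear regulators of respiratory genes (7 tested) had a median of -0.06. Of them, 0 (0%) were lower and 1 (14.3%) higher in all 3 rats, against 15.6% and 13.1% of all tested genes. Nrf1, a transcription factor for nuclear respiratory genes, differed by 0.95 ± 0.41 (adjusted p = 0.771), although its other probe set went the other way. Gabpb1, part of the factor known as NRF-2, which acts on genes for nuclear-encoded oxidase subunits, differed by -1.32 ± 1.75 and was 31.0 in OS of rat 1, and its r with COX2 was 0.939. It was brighter than background on 1 OS array, which leaves its size uncertain as well. The coactivator gene Ppargc1a differed by 0.87 ± 2.01 and Sp1 by 0.33 ± 2.07, with 1 of the 3 Sp1 probe sets going the other way.

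Mitochondrial ribosomal proteins, which serve the translation of COX1 and COX2, had a median of 0.03 over 54 tested genes. Of these, 11 (20.4%) were lower and 8 (14.8%) higher in OS in all 3 rats, close to the shares for all genes. The 4 with the smallest p were Mrps18c (2.07 ± 1.70, its other probe set going the other way), Mrpl22 (-1.85 ± 0.81), Mrpl16 (-1.58 ± 0.83) and Mrpl41 (1.07 ± 0.23), with adjusted p between 0.610 and 0.672 in limma. The size for Mrpl22 is uncertain, as 1 of its 3 OS arrays exceeded the background limit. Mrps18c read 14.5 in OD of rat 3 and Mrpl16 read 110 in OS of rat 2. Both values were within background, so the sizes for Mrps18c and Mrpl16 are uncertain too. Mitochondrial translation factors had a median of 0.86 over 6 genes. In all 3 rats, 1 (16.7%) was lower and 1 (16.7%) higher, against 15.6% and 13.1% of all tested genes. The medians of the translation factors were 0.05, 1.42 and 0.68 in rats 1 to 3, and their overall median was 0.48 without rat 2. Their 4 named genes were the release factor gene Mtrf1l (1.48 ± 1.86), the elongation factor gene Tsfm (1.08 ± 1.47), the initiation factor gene Mtif2 (0.78 ± 1.32) and the transfer RNA modifying enzyme gene Trmu (0.94 ± 0.67). Mtrf1l and Tsfm were above the limit on 1 of 3 OD arrays, which limits their sizes. Mtif2 (131) and Trmu (177) were within background in OD of rat 2, which leaves their sizes uncertain too. Each of the 6 tested genes was within background on that array, so the size of the rat 2 median, 1.42, is uncertain.

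**Figure D5:**
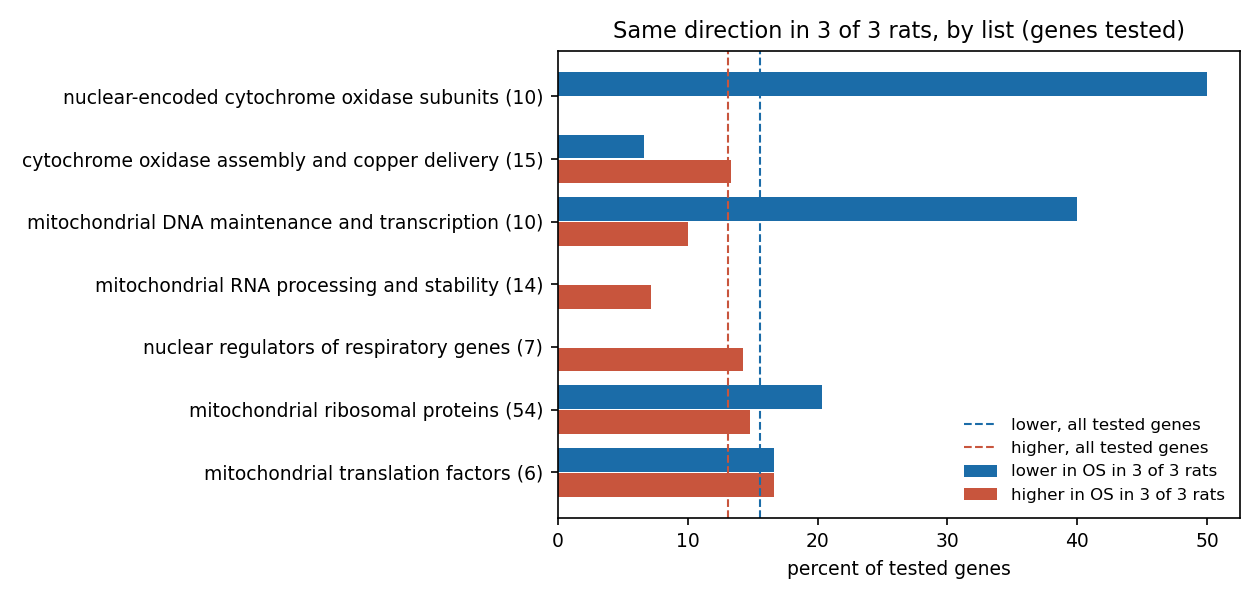
Share of tested genes in each list that were lower (blue) or higher (red) in OS in 3 of 3 rats, for the 7 lists with at least 5 tested genes (number tested in parentheses), with dashed lines for all tested genes. The nuclear-encoded subunits reach 50% lower, against 15.6% of all genes, and 0 higher.

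Other measures moved between the eyes beside these values, and their part in the results was not tested. The summed intensity of 14 ganglion cell markers was 25390 to 35810 in OD and 14890 to 20040 in OS, lower in OS in each rat (log2 ratios of -1.27, -0.60 and -0.68). That of 11 amacrine markers was 28030 to 73310 in OD and 12720 to 25110 in OS, also lower in each rat, with Chat and Tfap2a above the limit on no array. The sum of 10 pigment epithelium markers was 7929 to 39690 in OD and 3214 to 5392 in OS, lower in each rat. However, 0 of the 10 exceeded the limit on all 6 arrays, and Rpe65, Tyrp1, Tyr and Pmel, among others, were higher in OS of rat 2. The highest OD sum, in rat 3, came mostly from Pmel (17031) and Tyrp1 (10420). The sums of 14 photoreceptor markers (14390 to 43930 in OD, 13550 to 29950 in OS), of 11 Mueller glia and astrocyte markers (7153 to 19550 and 7230 to 17730, with Kcnj10 above the limit on no array) and of 12 microglia markers (3925 to 6495 and 3775 to 13190) went different ways in different rats. So did that of 8 vascular and blood markers (5074 to 6514 and 2826 to 12420). The sum of 6 bipolar and horizontal cell markers was 1990 to 3622 in OD and 2932 to 5163 in OS, higher in each rat. Only 1 of them, Pcp2, exceeded the limit on all 6 arrays, and Grm6, Lhx1 and Onecut1 were lower in OS in at least 1 rat. The markers above the limit on all 6 arrays were 4 for the amacrine, 3 for the photoreceptor, 3 for the glial, 0 for the microglia and 1 for the vascular list. In pooled RNA of this kind, fewer cells of a type and less RNA per cell cannot be told apart. The log2 ratio of the 3' to the 5' beta-actin control, a sign of RNA quality and amplification, exceeded that of OD in all 3 OS arrays by 1.32 ± 0.52 (SD, n = 3 rats), and most in rat 1 (1.79), the animal in which COX2 differed most. The same ratio for the Gapdh control differed by 0.29, 0.90 and -2.58 in rats 1 to 3 (mean -0.46 ± 1.86), so the 2 controls went different ways in rat 3.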

How the data were processed

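RNA of laser-captured cells was isolated with a PicoPure kit, amplified linearly (RiboAmp HS) and 10 µg was labelled with biotin, per the labels' protocols. The deposited values are intensity values of a 1-colour Affymetrix array, 1 per probe set, made by the authors with GCOS per the submitters' processing notes, whose settings the sources used here do not give. Trimmed means (2% from each end) were 500.1 on each array, so values were taken as globally scaled. Gene symbols came from the platform annotation: 20826 probe sets had 1 symbol, 436 several and 9780 none.

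Differences were OS minus OD of log2(intensity + 16). Probe sets at or above the median mean log2 value entered a limma fit (version 3.58.1, R 4.3.3; rat as fixed block, intensity trend, two-sided, Benjamini-Hochberg over 15521 probe sets, threshold 0.05). It had 2 residual and 19.4 prior degrees of freedom and was tested on simulated data. The brightest probe set stood for a gene. The background limit was the 95th percentile of 27 bacterial control probe sets, and a fold against an eye with all arrays at or below it is a lower bound. Where an array of the other eye was also within background, that bound is uncertain. Both eyes of a rat share the animal, per the titles; deviations from group means correlated at 0.109, 0.122 and 0.326 in rats 1 to 3. Named genes were both members, the 5 symbols most like each, all tested nuclear-encoded subunits, and the 4 smallest p of each other list. Members and lists were chosen with earlier results of these data known. Array number limits the precision. Alternatives were other offsets, quantile normalization, filters, blocks, prior variances, array weights, probe set averaging and leaving out a rat.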

Additional observations from a re-analysis of the deposited data

How the results depend on the processing

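The mean eye differences of COX1 and COX2 moved by less than their SD between rats under all 7 alternatives tried for each. Offsets of 1 and 64 are far below these intensities and could not move the means, so they are no check. With 1 rat left out, the means ran from -0.10 to 0.13 for COX1 and from -0.56 to -0.03 for COX2. Quantile normalization gave -0.18 and -0.14; it sets the brightest probe set of every array to 1 value by construction. Scaling to the spike-ins gave -0.06 and -0.40, with the sign of the COX1 difference turned in each rat. The lowest rank of either gene was 9, and 7 to 9 with 1 rat left out. The median of the nuclear-encoded subunits stayed below 0 under all 11 alternatives (-1.01 to -0.49). The count of 2 called probe sets fell to 0 without the trend, scaled to the spike-ins, without the replicate block, from the 75th percentile up, after quantile normalization, at an offset of 1 and with rat as a random block. A robust prior gave 1, array weights gave 7, no filter gave 9, an offset of 64 gave 9, and leaving out 1 rat gave 17 to 52. The cause was not tested. The median of the genome maintenance and transcription list moved from -0.03 to 0.20 from the 75th percentile up and to -0.28 with probe sets averaged, and ran from -0.15 to 0.16 with 1 rat left out. The sign of the median turned in 3 of 10 alternatives for assembly and copper delivery genes (-0.40 to 0.43), in 3 of 10 for cytochrome c genes and in 5 of 10 for nuclear regulators (-0.17 to 0.22). With 1 rat left out the median of translation factors ran from 0.48 to 1.17. With 1 rat left out the RNA processing median ran from -0.36 to 0.16 and that of mitochondrial ribosomal proteins from -0.27 to 0.03. The replicate block leaves every mean difference as it is.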

Other observations

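Among the 12 probe sets plotted by rank, 3 of the 5 annotated to Myh1, a fast skeletal muscle myosin heavy chain gene, stood beside COX2 at ranks between 8 and 17. They were singled out after their values were seen. The name is that of the platform annotation, no probe sequence was compared with a genome here, and so these values are not shown to be those of a muscle myosin message. All 5 exceeded the background limit on all 6 arrays, with values between 18373 and 189206. The probe set 1383162_at read 83885 and 47390 in the OD and OS eye for rat 1, 141094 and 136808 for rat 2, and 131311 and 118223 for rat 3. Its r with COX2 over the 6 arrays was 0.905, and like COX2 it was lowest in OS of rat 1.

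The unnamed probe set 1375422_at, at rank 1 or 2 on 3 of the arrays of rats 1 and 2, read 248562 in OD and 92652 in OS of rat 3. It lay between 413745 and 590068 on the other 4 arrays, on which COX1 was at both its lowest and its highest.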
